A study of Mus musculus with 8 samples.

Results

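The 10 genes described here are core components and direct outputs of the circadian clock, taken by symbol from a table of 55488 genes: Arntl, Clock, Per1, Per2, Per3, Cry1, Cry2, Nr1d1, Nr1d2 and Dbp. All 10 were found, had counts in every library and passed the filter on low counts, which left 16908 genes for testing. The tissue was dorsal skin of mice 3 months old, and the groups were 4 wild-type libraries (WT) and 4 libraries of mice with a knockout of Tph1 (TPH1 knockout), the enzyme gene for serotonin synthesis outside the brain. The labels give no promoter or cell type for the knockout, no sex or litter and no time of day of tissue collection. Whether the libraries of a genotype are from separate animals is not stated either. The p-values set the difference between genotypes against the spread among these libraries, and whether they extend to animals is not known. Tph1 itself had 18, 0, 27 and 11 counts in wild-type replicates 1 to 4 and 0 counts in each knockout library, so wild-type replicate 2 cannot be told from a knockout by this gene.

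The circadian clock is a transcriptional feedback loop that runs in nearly every cell, keratinocytes and dermal fibroblasts included. ARNTL (also called BMAL1) and CLOCK pair and switch on genes with an E-box, among them the Per and Cry genes, Nr1d1, Nr1d2 and Dbp; PER and CRY proteins then block the pair. NR1D1 and NR1D2, the REV-ERB proteins, repress Arntl through ROR elements, and DBP activates genes with a D-box, so that Arntl peaks at about the opposite time of day to Nr1d1 and Dbp, and Per2 and Cry1 reach their peaks after Nr1d1. The levels of these genes in a tissue sampled at a single time therefore reflect the clock time of that tissue. In bulk skin, fewer cells of a type and less RNA per cell cannot be told apart.

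The control elements named above can be read in the promoters of several of these genes. RefSeq promoter windows on GRCm38.p6, from 250 bases before to 50 bases after a start site, were found for 9 of the 10 genes (Per2 had none) and for 18 of the 25 other clock genes listed below. They were searched on both strands for the E-box CACGTG, its variant CACGTT, the D-box TTATGTAA, the ROR element core TAGGTCA and the cAMP response element TGACGTCA, none of which contains another. The stretches below show the matches in capitals, one gene for each kind of control and a pair of outputs for comparison. Positions are counted from the start site, which is +1, and all are written 5′ to 3′ on the gene's own strand.
Per1, chr11:69098759-69098808, plus strand, an E-box from -166: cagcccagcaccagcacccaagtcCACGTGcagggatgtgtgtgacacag
Per3, chr4:151044811-151044880, minus strand, D-boxes from -205 and -158: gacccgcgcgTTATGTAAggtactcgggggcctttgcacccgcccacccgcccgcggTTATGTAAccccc
Cry1, chr10:85185095-85185149, minus strand, a variant E-box from -79 and an E-box from -60: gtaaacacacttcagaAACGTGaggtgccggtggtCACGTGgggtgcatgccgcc
Nr1d1, chr11:98775378-98775427, minus strand, a variant E-box from -28: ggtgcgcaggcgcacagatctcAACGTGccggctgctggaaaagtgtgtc
Arntl, chr7:113207530-113207559, plus strand, a ROR element core from 31: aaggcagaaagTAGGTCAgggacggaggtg
Tef, chr15:81802523-81802562, plus strand, an E-box from -127: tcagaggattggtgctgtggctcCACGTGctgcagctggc
Nfil3, chr13:52981040-52981079, minus strand, a ROR element core from -12: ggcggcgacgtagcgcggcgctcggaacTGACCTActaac
The E-box was present in 2 of the 9 genes with a window and in 7.15% of all 32851 windows, and the variant E-box in 3 of 9 genes and 4.68% of windows. The D-box was found only in Per3 among the 9 genes, against 0.938% of windows, and the ROR element core only in Arntl, against 2.61%. The cAMP response element was in 0 of the 9 and in 1.79% of windows. A gene counted if any of its windows held the motif, while the percentages are per window. Genes can have more than 1 window, so these shares are not like for like. A match is a string of letters in a window, and these windows leave out distal and intronic elements.

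Per length, Dbp, Nr1d1 and Per1 had the highest mean levels of the 10 in wild-type skin, and the activators Arntl and Clock the lowest. In the deposited TPM values Dbp stood at 189 ± 39.0 (SD, n = 4), Nr1d1 at 133 ± 13.4 and Per1 at 95.2 ± 28.3. Nr1d2 followed at 34.0 ± 4.33 TPM, Cry2 at 33.8 ± 6.34 and Per3 at 21.6 ± 1.67. Per2 was at 11.8 ± 3.37 TPM, Cry1 at 6.98 ± 4.03, Arntl at 5.86 ± 2.55 and Clock at 4.56 ± 1.51. Of the 9 neighbouring pairs in this order, 3 had wild-type TPM values that did not overlap (Per1 above Nr1d2, Cry2 above Per3, Per3 above Per2), and the other 6 overlapped. Nr1d2 and Cry2 were level in wild-type skin, with Nr1d2 above Cry2 in 1 of 4 wild-type libraries and in 4 of 4 knockout libraries. Nr1d1 and Dbp were above Arntl in TPM in every library of both genotypes. The ratio of Dbp to Arntl in CPM, which is not per length, ran from 8.37 in wild-type replicate 1 to 40.5 in knockout replicate 2. Levels of different genes set against each other do not give a clock time, and no library has a known collection time.

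**Figure D1:**
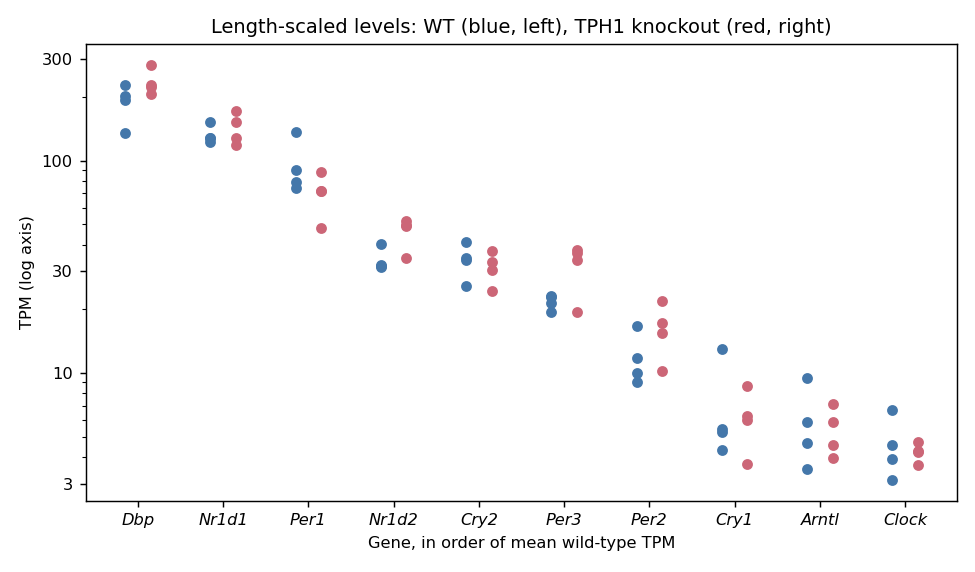
Deposited TPM of the 10 clock genes on a log axis, 1 point per library, wild type in blue on the left and TPH1 knockout in red on the right of each gene. The order runs from Dbp, with a wild-type mean of 189 TPM, to Clock, with 4.56 TPM.

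Between genotypes, Per2, Per3 and Nr1d2 were measured 1.37 to 1.56 times as high in knockout skin and Per1 at 0.770 times the wild-type level, and none of the 10 genes passed the test (edgeR quasi-likelihood test, adjusted p under 0.05 over all genes tested). The count of 0 of 10 stands beside 0.651% of all genes called (110 of 16908). At an unadjusted p under 0.05 there were 4 of 10, beside 17.6% of all genes: Per2, Per3 and Nr1d2 with a higher level in knockout (8.26% of all genes) and Per1 with a lower one (9.37%). The DESeq2 Wald test on the same counts called 2 of 10, Per3 and Nr1d2, both higher in knockout, beside 5.82% of all genes (2.02% higher, 3.80% lower). The median log2 fold change of the 10 genes was 0.09, beside 0.03 over all genes. Levels in the following sentences are CPM, counts scaled to a common library size by edgeR's TMM method, and a positive log2 fold change means a higher level in knockout.

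**Figure D2:**
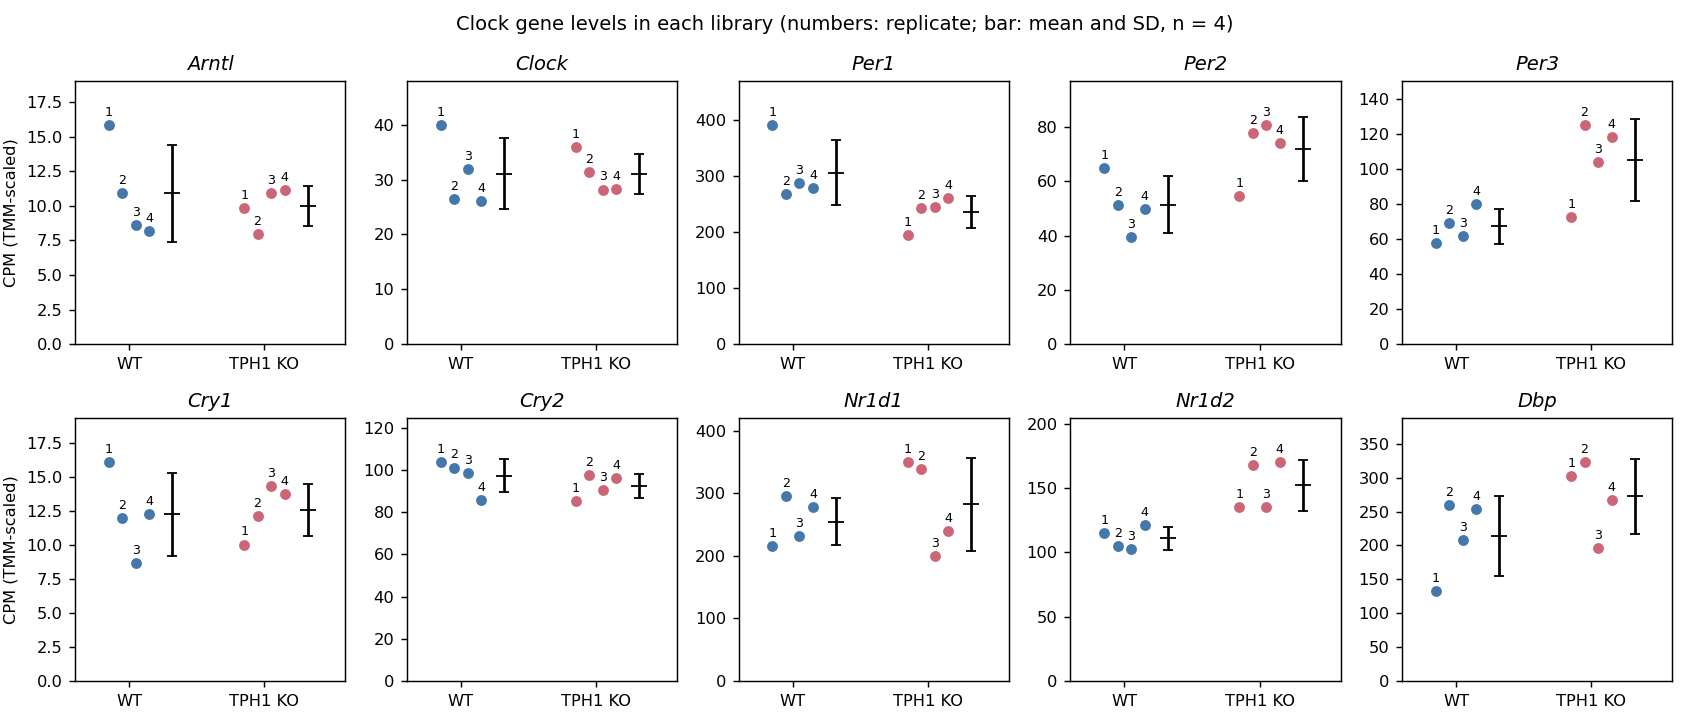
CPM of each clock gene in the 4 wild-type (blue) and 4 TPH1 knockout (red) libraries, numbered by replicate, with the mean and SD as a bar. Nr1d2 and Per1 are the 2 genes whose genotypes do not overlap, and knockout replicate 1 lies nearest the wild-type libraries for Per2 and Per3.

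The activators showed no shift beyond their spread. Arntl, on chromosome 7, was at 15.8, 10.9, 8.63 and 8.19 CPM in wild-type replicates 1 to 4 and at 9.81, 7.99, 10.9 and 11.2 CPM in knockout replicates 1 to 4. Wild-type replicate 1 was the highest of the 8 libraries, and the other 7 intermingled. The log2 fold change of Arntl was -0.13 ± 0.23 (SE; adjusted p by edgeR = 0.802), and without wild-type replicate 1 it was 0.11. Clock, its partner, was at 40.0, 26.4, 31.9 and 26.1 CPM in wild type and at 36.0, 31.4, 28.2 and 28.3 CPM in knockout. Its highest value was again in wild-type replicate 1, and its log2 fold change was -0.01 ± 0.16 (SE; adjusted p by edgeR = 0.987).

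The 3 Period genes, whose proteins carry the repression of CLOCK and ARNTL, did not move as a group. Per1, which signals of stress, light and hormones also induce within minutes to hours, was at 391, 267, 288 and 278 CPM in wild-type replicates 1 to 4 and at 194, 242, 244 and 261 CPM in knockout replicates 1 to 4. Every knockout library was below every wild-type library, by the narrow step from 261 to 267 CPM. The log2 fold change of Per1 was -0.38 ± 0.17 (SE; adjusted p by edgeR = 0.283). On the other scales, in CPM per library total, in the authors' matrix and in TPM, the genotypes overlapped. Without wild-type replicate 1, the highest library, the log2 fold change was -0.24.

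Per1 also responds to many of the signals that induce immediate early genes, whose levels differed between the libraries. The 18 listed immediate early genes, such as Fos and Egr1, all had negative log2 fold changes, with 3 called and a median of -1.95. Their mean level in log2(CPM + 1) ran from 6.15 to 8.25 in wild-type and from 5.32 to 6.31 in knockout libraries. Only wild-type replicate 2 lay within the knockout range, and the other wild-type libraries were at 7.32 to 8.25. A fit with this level as a covariate can therefore hardly separate it from genotype, and the SE of Arntl was 0.41 there against 0.23. With that level as a covariate the log2 fold change of Per1 was -0.14 (edgeR adjusted p = 0.891), while Per2, Per3 and Nr1d2 were at 0.53, 0.54 and 0.50 (edgeR adjusted p = 0.661, 0.661 and 0.617). Dbp and Nr1d1 were also nearer 0 in that fit, at 0.040 against 0.35 and at 0.0026 against 0.15, and Clock was at 0.37 against -0.01. The mean level of 10 glucocorticoid target genes, such as Fkbp5 and Tsc22d3, was 7.39 to 8.11 in wild type and 7.25 to 7.48 in knockout.

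Per2 and Per3 had their highest CPM values in the same 3 knockout libraries. Per2 was at 65.0, 51.3, 39.4 and 49.8 CPM in wild-type replicates 1 to 4 and at 54.6, 77.9, 80.8 and 74.2 CPM in knockout replicates 1 to 4. In CPM, knockout replicates 2, 3 and 4 were above every wild-type library and replicate 1 lay within the wild-type range. The log2 fold change of Per2 was 0.48 ± 0.18 (SE; adjusted p by edgeR = 0.211). In TPM, Per2 in knockout replicate 4, at 15.4, was under wild-type replicate 1, at 16.6, and it was under that library per library total too. Per3 was at 57.6, 69.1, 62.1 and 80.4 CPM in wild type and at 72.6, 125, 104 and 118 CPM in knockout. The same 3 knockout libraries were above all wild-type libraries and replicate 1 was below wild-type replicate 4. The log2 fold change of Per3 was 0.64 ± 0.18 (SE), the largest of the 10 genes, with an edgeR adjusted p of 0.137 and a DESeq2 adjusted p of 0.0333. Without knockout replicate 1 the values of Per2 and Per3 were 0.59 and 0.78 (edgeR adjusted p = 0.186 and 0.1002).

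The Cryptochrome genes encode the repressor partners of the PER proteins, and neither stood apart between genotypes. Cry1 was at 16.1, 12.0, 8.67 and 12.3 CPM in wild-type replicates 1 to 4 and at 10.04, 12.1, 14.4 and 13.7 CPM in knockout, with a log2 fold change of 0.03 ± 0.21 (SE; adjusted p by edgeR = 0.949). The sign of this value differed between scalings, at -0.01 by library totals and -0.12 with gene length offsets. Cry2 was the steadiest of the 10: its highest library, at 104 CPM, was 1.22 times its lowest, at 85.2 CPM, while the ratio was 1.53 to 2.44 for the other 9 genes. The log2 fold change of Cry2 was -0.08 ± 0.11 (SE; adjusted p by edgeR = 0.747).

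Of the REV-ERB genes, Nr1d2 was higher in every knockout library and Nr1d1 was not. Nr1d2 was at 115, 105, 103 and 122 CPM in wild-type replicates 1 to 4 and at 135, 168, 135 and 171 CPM in knockout replicates 1 to 4. The genotypes did not overlap, and the log2 fold change was 0.45 ± 0.13 (SE; adjusted p by edgeR = 0.139, DESeq2 adjusted p = 0.0274). In the authors' matrix they did not overlap either. In CPM per library total they did, and in TPM the lowest knockout value, 34.6, lay under the highest wild-type value, 40.5. Among the 10 genes, 2 had genotypes that did not overlap in CPM, beside 11.0% of all genes tested: Nr1d2 was above (5.39% of all genes) and Per1 below (5.65%).

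Nr1d1 was at 215, 295, 231 and 278 CPM in wild type and at 350.5, 339, 199 and 239.8 CPM in knockout. Knockout replicates 1 and 2 were the highest of the 8 libraries and knockout replicate 3 the lowest, and the log2 fold change was 0.15 ± 0.21 (SE; adjusted p by edgeR = 0.738). It ran from 0.019 without knockout replicate 1 to 0.28 without knockout replicate 3. The end of Nr1d1 overlaps Thra, the thyroid hormone receptor gene on the other strand, by 1075 bases in the annotation, and the library kit named in the labels does not mark strand, so reads in that stretch cannot be assigned by strand. Thra had a log2 fold change of 0.24 ± 0.14 (SE; adjusted p by edgeR = 0.385).

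Dbp, the D-box activator, varied most over the libraries. It was at 133, 260.4, 209 and 254 CPM in wild-type replicates 1 to 4 and at 302, 324, 197 and 267 CPM in knockout replicates 1 to 4. Its lowest library was wild-type replicate 1 and its highest knockout replicate 2, 2.44 times as high, and the genotypes overlapped. The log2 fold change was 0.35 ± 0.24 (SE; adjusted p by edgeR = 0.462), and without wild-type replicate 1 it was 0.18.

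Dbp is also a neighbour of the targeted gene. In GRCm38 it lies on the plus strand of chromosome 7 from 45705088 to 45710203, 0.934 Mb from Tph1, while Arntl lies 66.5 Mb from Tph1 on the same chromosome. Within 2 Mb of Tph1, 12 of 102 tested genes were called (11.8%), against 95 of 16722 (0.568%) beyond 10 Mb. Dbp was not among the called genes, and what its position contributes to its value was not tested. The last 737 bases of Dbp overlap Sphk2, a sphingosine kinase gene on the other strand, with a mean of 88.0 ± 8.94 CPM for wild type and 65.9 ± 4.97 CPM for knockout (SD, n = 4; log2 fold change -0.42 ± 0.12 SE, adjusted p by edgeR = 0.129).

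The libraries of a genotype did not share a single phase pattern. Wild-type replicate 1 had the highest Arntl, Clock, Cry1, Cry2 and Per1 and the lowest Dbp and Per3 of all 8 libraries. In log2(CPM + 1) its Arntl was 0.59 above and its Dbp 0.82 below the mean of the 8 libraries. Knockout replicate 2 was opposite for Arntl and Dbp, with the lowest Arntl (-0.32 from the mean) and the highest Dbp (0.46) and Per3 (0.59). Knockout replicates 1 and 3 also differed from each other: replicate 1 had Nr1d1 at 0.41 and Per2 at -0.13, and replicate 3 had Nr1d1 at -0.40 and Per2 at 0.42.

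**Figure D3:**
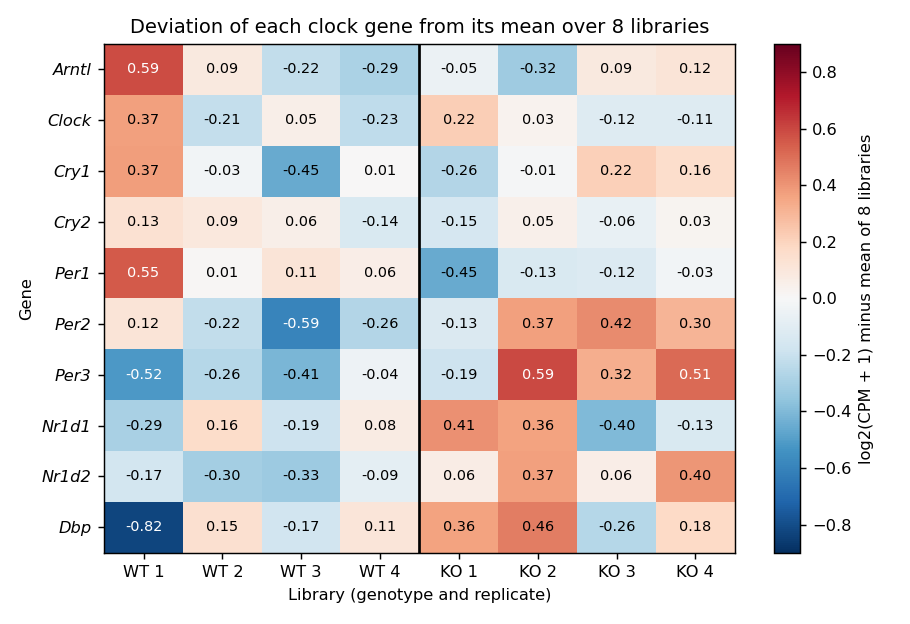
Deviation of each clock gene, in log2(CPM + 1), from its mean over the 8 libraries, red above and blue below, with wild type to the left of the line. Wild-type replicate 1 combines high Arntl (0.59) with low Dbp (-0.82), and knockout replicates 2, 3 and 4 share high Per2 and Per3.

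A phase contrast was formed in each library as the mean log2(CPM + 1) of 6 genes (Per1, Per2, Per3, Nr1d1, Nr1d2 and Dbp) minus that of Arntl, Clock and Cry1, grouped by the time of day of their known peaks and not by promoter motifs, which cancels any factor shared by a whole library. It was 2.53, 3.13, 3.10 and 3.30 in wild-type replicates 1 to 4 and 3.20, 3.59, 3.10 and 3.31 in knockout replicates 1 to 4. The genotypes overlapped, with a mean of 3.01 ± 0.34 for wild type and of 3.30 ± 0.21 for knockout (SD, n = 4), a difference of 0.29 that was 0.12 without wild-type replicate 1 and 0.19 without knockout replicate 2. The group of 6 genes alone was at 6.96 to 7.20 in wild type and 7.23 to 7.56 in knockout. On this scaling the ranges did not overlap, by the narrow step from 7.20 to 7.23. A single group does not cancel a factor shared by a whole library. The TMM factors ran from 0.884 in knockout replicate 1 to 1.10 in knockout replicate 3. Whether the group stays apart per library total is not given here, and its members Per1 and Nr1d2 overlapped on that scale. The group of 3 was at 3.86 to 4.51 in wild type and 3.97 to 4.13 in knockout. Being scores over chosen genes, these values carry no test.

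**Figure D4:**
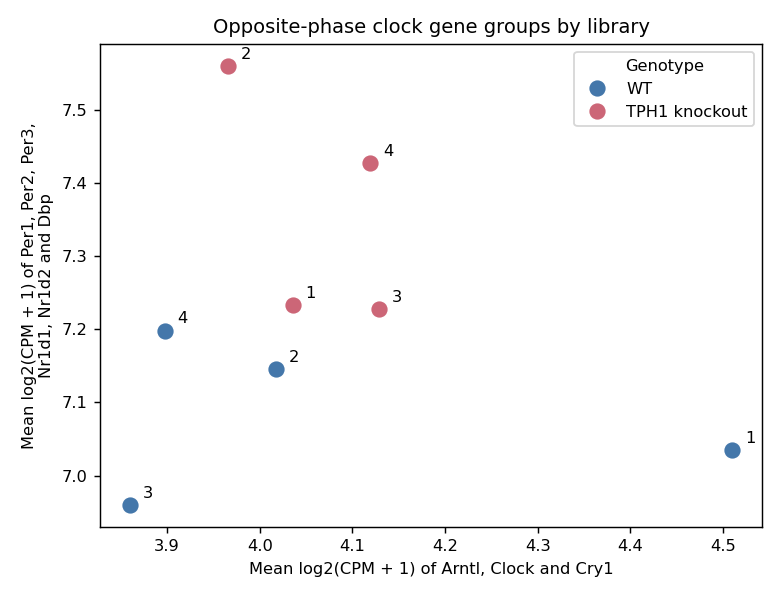
Mean log2(CPM + 1) of Per1, Per2, Per3, Nr1d1, Nr1d2 and Dbp (vertical axis) against that of Arntl, Clock and Cry1 (horizontal axis), 1 point per library, numbered by replicate. On this scaling the knockout libraries lie above 7.20 on the vertical axis, the lowest at 7.23, and the wild-type libraries at or below it. Wild-type replicate 1 stands alone at 4.51 on the horizontal axis.

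A second contrast, chosen after the values were seen, set genes that peak later (Per2 and Per3) against genes that peak earlier (Nr1d1 and Dbp). This difference was -1.45, -2.20, -2.13 and -2.05 in wild-type replicates 1 to 4 and -2.35, -1.73, -1.10 and -1.42 in knockout replicates 1 to 4. Knockout replicate 1 was the lowest and knockout replicate 3 the highest of the 8 libraries, so the knockout libraries spanned a wider range than the wild-type libraries and enclosed it. Wild-type replicate 1 lay next to knockout replicate 4.

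Across the 8 libraries, Arntl was set against each of the other 9 genes in log2(CPM + 1), with exact permutation p-values, two-sided, adjusted by the Benjamini-Hochberg method over 9 pairs. The relation with Dbp was the largest (Pearson r = -0.74, exact permutation p = 0.0382, adjusted p = 0.270; Spearman rho = -0.52, exact permutation p = 0.197, adjusted p = 0.590). With Cry1, Pearson r was 0.68 (exact permutation p = 0.0599, adjusted p = 0.270) and Spearman rho 0.62 (exact permutation p = 0.115, adjusted p = 0.590). With Nr1d1, Pearson r was -0.53 (exact permutation p = 0.180, adjusted p = 0.358) and Spearman rho -0.57 (exact permutation p = 0.151, adjusted p = 0.590). None of the 9 pairs passed after adjustment. Without the 2 libraries farthest from the Arntl median, wild-type replicate 1 and knockout replicate 2, r with Dbp was 0.07, with Cry1 0.59 and with Nr1d1 -0.17. The relation with Dbp thus rests on those libraries, and leaving them out also narrows the range of Arntl. With genotype means removed, over all 8 libraries, Pearson r was -0.77 with Dbp (exact permutation p = 0.0184, adjusted p = 0.165). With Cry1 it was 0.71 (exact permutation p = 0.0495, adjusted p = 0.219), and again none of the 9 pairs passed after adjustment.

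The other genes of the clock were given by a list of 25 partners, kinases, ubiquitin ligases and outputs, of which 24 were tested and Rorb was too low. None of the 24 passed the edgeR test (0.651% of all genes did), 7 had an unadjusted p under 0.05 (17.6% of all genes) and DESeq2 called 3 (5.82% of all genes), all lower in knockout (3.80% of all genes): Bhlhe40, Wee1 and Klf10. The median log2 fold change of the 24 was 0.02.

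Bhlhe40, which encodes a repressor that competes for E-boxes and also responds to stress and hypoxia, had the smallest p. It was at 176, 130, 295 and 185 CPM in wild-type replicates 1 to 4 and at 122, 97.5, 83.1 and 89.4 CPM in knockout replicates 1 to 4, without overlap. Its log2 fold change was -1.01 ± 0.24 (SE; adjusted p by edgeR = 0.0977, DESeq2 adjusted p = 0.00528), and with the immediate early level as a covariate -0.32 (edgeR adjusted p = 0.787). That level can hardly be separated from genotype in these libraries. Wee1, a cell cycle kinase gene under clock control, was at 69.2, 55.4, 70.3 and 48.0 CPM in wild type and at 36.9, 41.8, 37.6 and 45.0 CPM in knockout. Its genotypes did not overlap either, with a log2 fold change of -0.59 ± 0.15 (SE; adjusted p by edgeR = 0.104, DESeq2 adjusted p = 0.0207). Klf10, a transcription factor gene that TGF-beta induces, had a log2 fold change of -0.81 ± 0.25 (SE; adjusted p by edgeR = 0.163, DESeq2 adjusted p = 0.0475).

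Of the relatives of Dbp, the activators had positive values and the repressor a negative one. Tef, a D-box activator of the same family as Dbp, whose promoter holds the E-box shown above, was at 256, 360, 292 and 370 CPM in wild-type replicates 1 to 4 and at 403, 453, 403 and 506 CPM in knockout replicates 1 to 4. Its genotypes did not overlap, and the log2 fold change was 0.47 ± 0.17 (SE; adjusted p by edgeR = 0.213). Hlf, the third member of that family, had 0.42 ± 0.18 (SE; adjusted p by edgeR = 0.265). For Hlf, knockout replicate 1 was at 42.8 CPM, below every wild-type library (44.4 to 49.4 CPM). The other knockout libraries were at 58.6 to 82.7 CPM. Nfil3, which encodes the repressor that binds the same D-box, had -0.44 ± 0.20 (SE; adjusted p by edgeR = 0.295). Nampt, a clock-controlled gene of NAD synthesis, had 0.48 ± 0.16 (SE; adjusted p by edgeR = 0.201). The 7 kinase and ubiquitin ligase genes that set the stability of PER and CRY proteins had 3 positive and 4 negative log2 fold changes, and none had an unadjusted p under 0.05. Over all 24, 3 genes had genotypes that did not overlap in CPM (Tef upward, Bhlhe40 and Wee1 downward), beside 11.0% of all genes. In TPM, Tef overlapped, with 129 in knockout replicate 1 under 140 in wild-type replicate 2. Wee1 overlapped too, with 17.7 in knockout replicate 3 above 16.6 in wild-type replicate 4, and Bhlhe40 did not overlap.

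**Figure D5:**
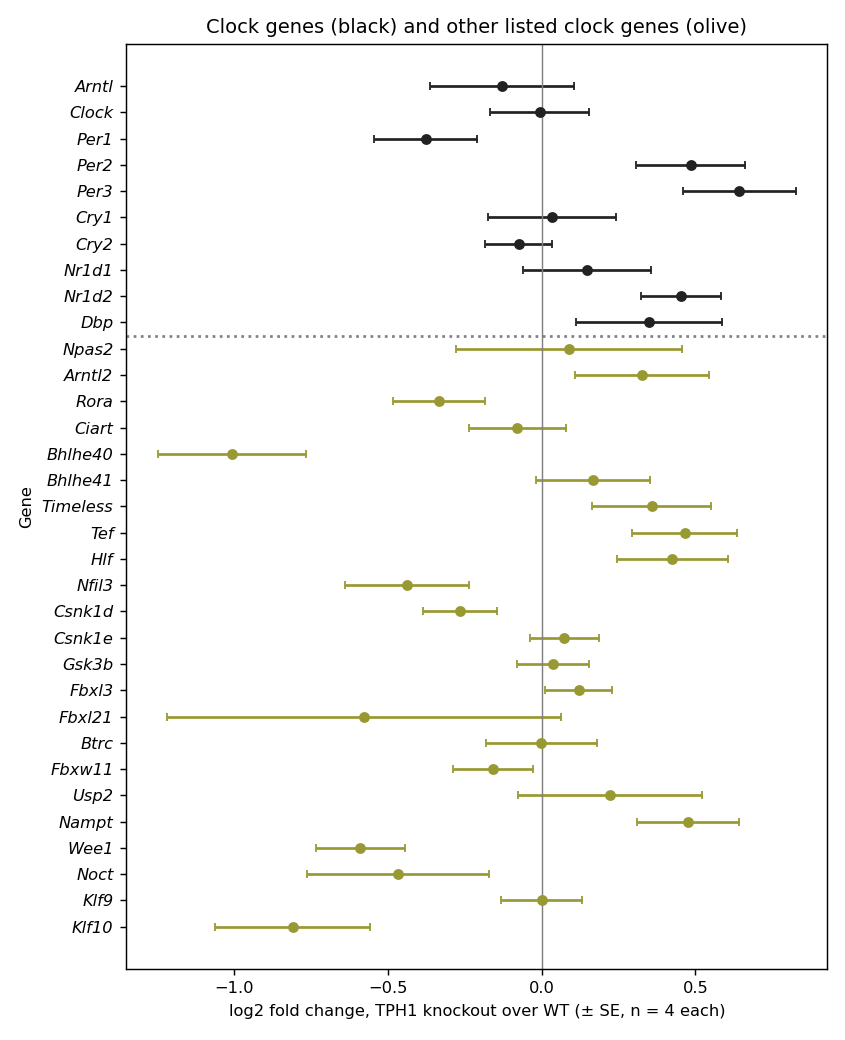
Log2 fold change, TPH1 knockout over wild type, with SE (n = 4 each), of the 10 clock genes in black and of other tested clock genes in olive. Per2, Per3, Nr1d2, Tef and Hlf lie to the right of 0, and Per1, Bhlhe40, Wee1 and Klf10 to the left; no gene passed the edgeR test.

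The libraries held from 20531601 to 24678638 expected counts in all. Keratinocyte and fibroblast markers were present in all libraries, and the RNA levels of several marker lists differed between them. The 8 keratinocyte markers had a mean level of 10.4 to 10.8 in wild type and 9.79 to 9.96 in knockout in log2(CPM + 1), and all 8 had negative log2 fold changes. The 12 skeletal muscle markers had levels of 9.83 to 12.4 and 11.8 to 12.7, and with the muscle level as a covariate Per3 was at 0.60 and Nr1d2 at 0.42 (edgeR adjusted p = 0.310 and 0.310). In the same fit Per2 was at 0.46 and Per1 at -0.32, while Dbp was at 0.22 against 0.35 and Nr1d1 at 0.029 against 0.15 without the covariate. The 9 tested hair matrix markers were highest in knockout replicate 3, at 5.99, against 1.04 to 3.61 in wild type and 1.055 to 3.54 in the other knockout libraries. Adipocyte markers were at 7.80 to 8.46 and 6.21 to 8.22. The 8 immune markers were at 4.24 to 5.03 in wild type and 3.45 to 5.01 in knockout, with 7 negative log2 fold changes and a median of -0.63. The 9 heat shock genes were at 7.44 to 7.75 in wild type and 7.10 to 7.28 in knockout, without overlap, with 7 negative log2 fold changes. The part of the keratinocyte, fibroblast, hair matrix, adipocyte, immune and heat shock levels in the clock gene values was not tested.

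Outside the clock lists, 11420 genes with a mean of at least 5 CPM were ranked by Pearson r with the phase contrast over the 8 libraries, as a description with no p. The contrast was 2.53 in wild-type replicate 1 and 3.10 to 3.59 in the other libraries, so that 1 library weighs heavily in each r. The highest genes by r were Zfp688 (r = 0.97), Pts (0.96), Brd3 (0.96), Hoxb8 (0.96) and Pola2 (0.96). The lowest were Igtp (-0.96), Klhl18 (-0.96), Ddx21 (-0.96), Etf1 (-0.95) and Eif2s1 (-0.95). The log2 fold changes of these 10 genes ran from -0.27 to 0.64, with no gene called.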

How the data were processed

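RNA from dorsal skin was sequenced as 8 libraries prepared with the NEBNext Ultra kit, per the labels' protocols. Tools listed in the submitters' processing notes are RSEM 1.31, STAR 2.7.6a, DESeq and DESeq2, on GRCm38, with no step assigned to them. A label mentions release 101 of Ensembl. Per the file headers, the deposited expected counts are RSEM estimates, not normalized, and the deposited TPM values are scaled to effective length; the deposited FPKM values entered no test. The authors' matrix of 17382 genes holds a normalized signal that, from its values, carries a gene length correction per library (100% of 12338 genes within 1% of 1 factor after that correction). Effective lengths entered 1 alternative.

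After rounding, the expected counts went into edgeR 4.0.16 (R 4.3.3), with filterByExpr (minimum count 10, total 15), TMM scaling and a robust quasi-likelihood test of genotype with no other term. Benjamini-Hochberg adjustment ran over 16908 genes, with a threshold of 0.05. Each SE was derived from the fold change and its F statistic. The fit was tested on simulated data. DESeq2 1.42.0, limma 3.58.1, other scalings, covariates and fits without 1 library were alternatives. Coordinates are GENCODE M21 on GRCm38. The members and lists were chosen with earlier results of these data known. Named genes are the 10 members, Tph1, the 6 other clock genes with the smallest p (1 of them is not reported here), and the 5 highest and 5 lowest in likeness to the phase contrast; Hlf, Nfil3, Thra, Sphk2 and Csnk1d were named after their values were seen. Rorb is named as the untested gene of its list, and Fos, Egr1, Fkbp5 and Tsc22d3 as examples of theirs. Replicate numbers follow record order.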

Additional observations from a re-analysis of the deposited data

Results flagged for a closer look

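Per1 in wild-type replicate 1, at 391 CPM, lay far above the other 3 wild-type libraries (267 to 288 CPM), with a gap of 0.835 of the group's range, just past Dixon's critical value for 4 samples. The same library had the highest Arntl, Clock, Cry1 and Cry2. Csnk1d, a kinase gene that phosphorylates PER proteins, was at 141 CPM in knockout replicate 1 against 121 to 123 CPM in the other 3 knockout libraries, with a gap of 0.895 of the range. The search covered 70 groups of 4 libraries, and the test's 95% level leaves about 1 such mark in every 20 groups to chance.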

How the results depend on the processing

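Over 19 alternatives Per1 and Cry2 stayed negative and Per2, Per3, Nr1d2 and Dbp positive. DESeq2 called 2 of the 10 clock genes, both higher (0 by edgeR), and 3 other clock genes, all lower (0 by edgeR). No other alternative called a member. Over all genes, edgeR called 20 higher and 90 lower. The counts were 7 and 20 by library totals, 3 and 3 with the immediate early covariate, 7 and 21 with the muscle covariate, 341 and 643 by DESeq2, 10 and 18 by limma on TPM, and 31 higher without a filter. Leaving out single libraries gave 5 to 23 higher and 3 to 147 lower, the lowest without knockout replicate 2 and the highest without knockout replicate 3. Pairs of libraries to leave out were chosen after seeing the data: without wild-type and knockout replicate 1 there were 7 higher and 6 lower, and without wild-type replicate 2 and knockout replicate 3, 149 lower.

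Log2 fold changes near 0 changed sign, and the cause was not tested. Leaving out single libraries, Arntl ran from -0.25 to 0.11, Clock from -0.10 to 0.14 and Cry1 from -0.10 to 0.19. Without both replicates 1, Arntl was 0.12, Clock 0.058 and Nr1d1 -0.048. Clock was 0.37 with the immediate early covariate and 0.080 with the muscle covariate. Cry1 was -0.0091 by library totals, -0.12 with length offsets, -0.039 with the muscle covariate, -0.046 in the authors' matrix, -0.089 in TPM and -0.062 without wild-type replicate 2 and knockout replicate 3. Without the 2 libraries farthest from the Arntl median, r with Arntl was -0.12 for Clock, -0.29 for Per1, 0.56 for Per3, 0.47 for Nr1d2 and 0.072 for Dbp. The phase contrast difference of 0.29 stayed positive, from 0.12 without wild-type replicate 1 to 0.42 without Per1. No paired analysis was possible because the replicate numbers follow record order and pair no samples. For Arntl, Clock, Cry1, Cry2 and Nr1d1 the SE of the log2 fold change was larger than the size of the value itself. This shows neither a difference nor its absence.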
